A study of Canis lupus familiaris with 20 samples.

Results

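The genes described here lie in a stretch of 1 Mb on dog chromosome 27, between 35800000 and 36800000 in the genome build CanFam3.1, at a position proposed to hold the cluster of natural killer and C-type lectin receptors. All genes of the deposited table whose lowest start falls in this window were taken, which gave 21 of 24580 genes. The 14 members were then selected on their measured counts, with at least 50 counts over all 20 libraries. The table pairs no identifier with a gene name, so the 21 genes are numbered 1 to 21 in the order of their start positions. Gene 17, which starts at 36654072, and gene 2, which starts at 35828941, were picked as a contrasting pair with earlier results of these data in view. Earlier results of these data had shown a run of genes there, from gene 2 to gene 18, that stood higher at day 14 than at day 9 in controls. The age change in controls and every value of the pair are therefore given as descriptions, with no test. Both genotype comparisons use those control libraries, so their p-values are not independent of how the stretch came to be chosen: low day 9 controls favour a higher level in affected dogs at day 9, and high day 14 controls favour a lower one at day 14.

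C-type lectin receptors are membrane proteins with a lectin-like domain by which leukocytes sense other cells, microbes and damaged tissue. In mammals many of them are encoded side by side in the natural killer gene complex, where receptors of natural killer and T cells (the KLR genes) neighbour receptors of myeloid cells, endothelium and platelets (many of the CLEC genes). Some pass on activating and others inhibiting signals, and they are best known in cells of the blood and the immune system rather than in chondrocytes, the cells of cartilage.

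The tissue was epiphyseal cartilage of the T12 vertebra, with the cranial and caudal ends of each vertebra combined per dog. Mucopolysaccharidosis VII (MPS VII) is a lysosomal storage disease caused by loss of beta-glucuronidase, the product of GUSB. The 10 affected dogs were homozygous for the GUSB missense change R166H, and the 10 control dogs were litter-matched heterozygotes, so every animal carried at least 1 changed allele. Each genotype had 5 dogs at postnatal day 9 and 5 at day 14, with 1 library per dog, and sex is not given in the labels used here. Libraries held 21419930 to 28028365 counts at day 9 and 15772761 to 22471728 at day 14, so depth went with age. MPS VII day 9 replicate 3 stood apart from its group on the third principal component of log2 CPM, at 85.0 against -17.8 to -4.70 in the rest of the group and at most 15.5 in the other groups. Calls that change without it are given both ways. Levels are in CPM, the usual scale of counts relative to library size, here with library sizes adjusted by TMM (a trimmed mean of ratios between libraries). In bulk tissue, fewer cells of a type and less RNA per cell cannot be told apart. Markers of cartilage and of blood cells could not be read for want of names, so the tissue label was not checked and the share of any cell type in these values was not tested.

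The exon structure went against the label for part of the stretch. Of the 21 genes, 14 had 4 to 8 exons, gene 19 among them. Small receptor genes have such numbers, but the number alone does not show that a gene is a receptor gene. Genes 14, 15 and 17 had 36, 37 and 36 exons, far more than a C-type lectin receptor gene. Gene 21 had 15 exons. Genes 1, 16 and 20 were single exons of 240, 191 and 105 bases. In another dog assembly, UU_Cfam_GSD, whose table matched 0 of the 24580 identifiers, 13 symbols that start with KLR or CLEC stand among the 39 genes from PHC1 to KLRA1 on chromosome 27. That neighbourhood also holds genes of other kinds: PZP, a large protease inhibitor of the alpha-2-macroglobulin family, lies between KLRG1 and KLRB1, and M6PR, a receptor that carries enzymes to the lysosome, lies between PHC1 and KLRG1. PHC1, M6PR and PZP stand near 1 end of that neighbourhood, and which end of the window matches it was not established. No gene of the table was assigned to any of these names, and the stretch is called the chromosome 27 window below. Genes 17, 19 and 21 held most of its counts, and whether they are lectin receptors was not tested.

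**Figure D1:**
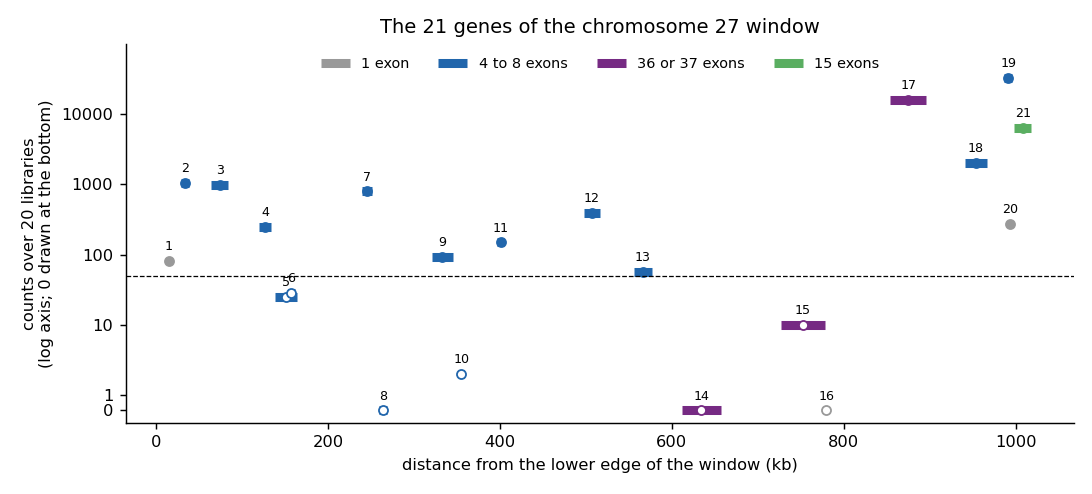
Genes of the chromosome 27 window by distance from its lower edge (horizontal axis, kb) and by counts summed over 20 libraries (vertical axis, log scale, with 0 drawn at the bottom). Bars span each gene, colours give the number of exons, filled points mark genes with at least 50 counts (dashed line) and numbers name the genes; gene 19 holds 32628 counts and gene 17 holds 16173, while genes 8, 14 and 16 hold 0.

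The window was sparsely transcribed in cartilage, and its counts sat at its upper end. Together the 21 genes held 61432 counts, or 0.0140% of all counts. Gene 19 (36786981 to 36796231, plus strand, 7 exons) took 53.1% of these and gene 17 (36654072 to 36696052, plus strand, 36 exons, ENSCAFG00000025567) took 26.3%. Gene 21 (36798188 to 36818398, minus strand, 15 exons) took 10.5%, and gene 18 (36740984 to 36766777, minus strand, 5 exons, ENSCAFG00000028762) took 3.28%. Gene 2 (35828941 to 35838821, plus strand, 6 exons, ENSCAFG00000013495) followed with 1.69%. The 7 genes under the minimum held 0 to 28 counts. The nearest to it on either side were gene 13 with 56 counts and gene 6 with 28.

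Of the 14 members, 11 passed the filter on low counts and were tested with the 14550 genes of the whole table. Genes 1, 9 and 13, with 82, 92 and 56 counts, did not pass it. Per kilobase of exon, gene 19 had the highest mean level of the 11 over all libraries, at 33.5 CPM per kb, and was above gene 17 (7.30 CPM per kb) in 20 of 20 libraries. Genes 17, 20 (5.99 CPM per kb) and 21 (4.80 CPM per kb) came next and changed places between libraries, with gene 17 above gene 20 in 11 of 20, of which 0 were day 9 controls. The place of gene 20 is imprecise, as it rests on 105 exon bases and 6 to 21 counts per library, or 0.629 CPM on average. Genes 3 and 18 had like means, at 2.71 and 2.62 CPM per kb, but their order depended on genotype: gene 3 was above gene 18 in 5 of 5 control libraries at each age, and in 2 of 5 affected libraries at day 9 and 0 of 5 at day 14. Genes 7 and 2, at 1.43 and 1.40 CPM per kb, also changed order, with gene 7 above gene 2 in 0 of 5 control libraries of day 9 and in 5 of 5 affected libraries of day 14. Gene 4 had 0.791 CPM per kb, and genes 11 and 12 were lowest at 0.245 and 0.219.

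Gene 17 was higher in affected than in control dogs at day 9 in every library. In the 5 day 9 controls it stood at 9.07, 9.31, 16.0, 13.3 and 7.43 CPM, and in the 5 affected dogs of that age at 27.6, 36.99, 68.5, 58.0 and 26.7 CPM. At day 14 the controls held 36.2, 23.1, 30.4, 43.0 and 34.0 CPM and the affected dogs 63.4, 56.6, 61.8, 96.5 and 37.7 CPM. The groups of day 14 overlapped in 1 affected library, which lay below the highest control. Group means were 11.02 ± 3.53, 43.6 ± 18.8, 33.3 ± 7.35 and 63.2 ± 21.2 CPM (SD, n = 5 each) in the order control day 9, MPS VII day 9, control day 14 and MPS VII day 14. The log2 difference between genotypes was 1.99 ± 0.29 (SE) at day 9 and 0.92 ± 0.28 at day 14. Affected day 9 replicate 3 held the highest value of its group, and without it the day 9 difference was 1.76.

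Gene 2 showed the opposite order of genotypes at day 14. It held 1.88, 1.62, 1.85, 1.04 and 2.33 CPM in the day 9 controls and 1.18, 1.75, 0.948, 1.22 and 0.460 CPM in the affected dogs of day 9, and these groups overlapped. At day 14 it held 4.27, 5.28, 4.76, 3.33 and 6.61 CPM in control dogs and 1.19, 2.33, 2.01, 1.70 and 1.89 CPM in affected dogs, with no overlap. The 5 control libraries of day 14 were thus the highest of all 20. Group means were 1.75 ± 0.468, 1.11 ± 0.469, 4.85 ± 1.22 and 1.82 ± 0.422 CPM (SD, n = 5 each) in the same order of groups. The log2 difference between genotypes was -0.65 ± 0.30 (SE) at day 9 and -1.41 ± 0.29 at day 14. With age, gene 2 differed by 1.47 ± 0.29 on the log2 scale in controls and by 0.71 ± 0.30 in affected dogs, and gene 17 by 1.60 ± 0.29 and 0.54 ± 0.28. Without affected day 9 replicate 3 the age difference of gene 17 in affected dogs was 0.78.

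**Figure D2:**
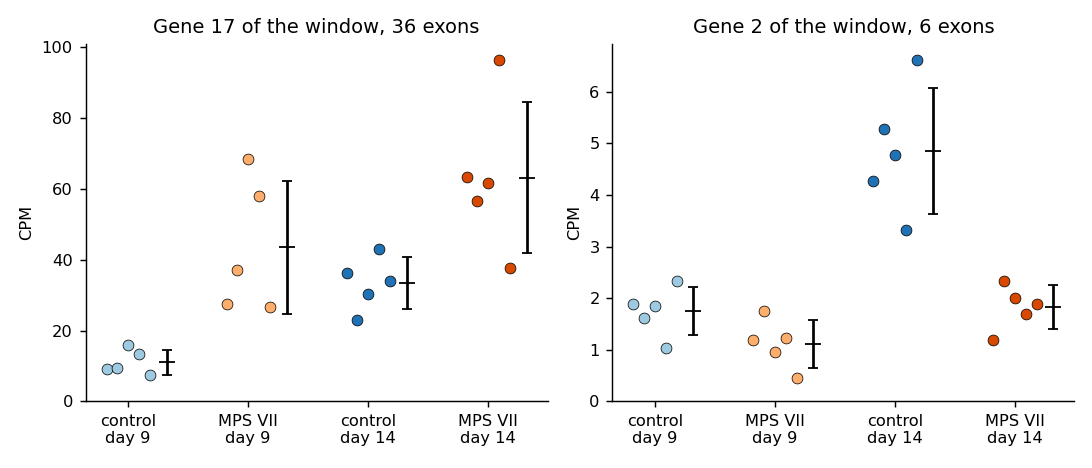
CPM of gene 17 (left) and gene 2 (right) in each library of the 4 groups, with 5 dogs a group. Points are libraries and bars beside them give the mean ± SD; gene 17 is lowest in the day 9 controls (7.43 to 16.0 CPM), and gene 2 is highest in the day 14 controls (3.33 to 6.61 CPM).

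Taken as a ratio within each library, which needs no scaling for depth, the pair separated the genotypes and not the ages. Gene 17 had 4.81, 5.74, 8.67, 12.7 and 3.19 counts for each count of gene 2 in the day 9 controls, and 8.47, 4.36, 6.38, 12.9 and 5.14 in the day 14 controls. In affected dogs the ratios were 23.4, 21.1, 72.2, 47.5 and 58.2 at day 9, and 53.1, 24.3, 30.8, 56.9 and 19.9 at day 14. The lowest affected library was above the highest control library at both ages, also without affected day 9 replicate 3. The mean log2 ratio was 2.65 ± 0.77 and 2.79 ± 0.62 in controls of day 9 and day 14, and 5.31 ± 0.79 and 5.08 ± 0.67 in affected dogs (SD, n = 5 each). The pair was chosen for its difference, so the separation is a description. Gene 2 held as few as 10 counts in a library, which limits the precision of its ratios.

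**Figure D3:**
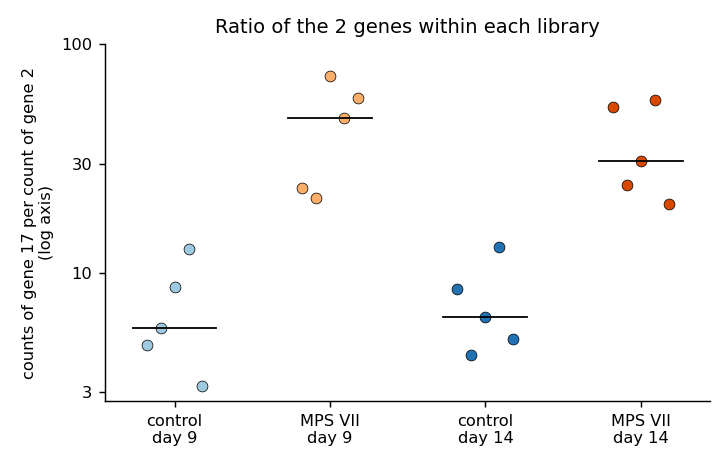
Counts of gene 17 per count of gene 2 in each library (vertical axis, log scale) for the 4 groups; points are libraries and lines are medians. Control libraries lie between 3.19 and 12.9 and affected libraries between 19.9 and 72.2.

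The other 9 tested members were read first for genotype at day 9, which asks how affected epiphyses differed at the earlier age in a study of failed endochondral ossification, the making of bone on a cartilage template. Gene 18, the 5-exon neighbour of gene 17 on the opposite strand, rose most. It held 1.05, 0.427, 1.32, 0.812 and 0.537 CPM in control dogs and 3.13, 3.97, 8.53, 4.61 and 3.03 CPM in affected dogs, and the groups did not overlap. Its log2 fold change was 2.48 ± 0.32 (SE), and the adjusted p was 2.13e-05 in the quasi-likelihood test of edgeR, corrected after Benjamini and Hochberg. Affected day 9 replicate 3 again held the highest value, and without it the change was 2.13 and still past the threshold. Gene 19 rose by 0.71 ± 0.08 on the log2 scale (edgeR adjusted p = 8.16e-06). It went from 48.1, 48.3, 55.0, 47.9 and 44.8 CPM in controls to 83.5, 82.6, 69.3, 88.5 and 74.9 CPM in affected dogs, without overlap.

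These 2 were the only ones of the 9 called higher in affected dogs at day 9 by the edgeR test (adjusted p under 0.05), where 6.18% of all tested genes were called higher. None of the 9 was called lower by edgeR, against 2.21% of all tested genes; DESeq2 also called 0 of them lower, and 0 were lower at an unadjusted p under 0.05. Gene 20 passed the filter through affected libraries (10, beside 4 of controls), and without it 2 of 8 were called higher and 0 lower. Gene 7 (36040314 to 36051214, minus strand, 6 exons) stood 0.94 ± 0.38 higher on the log2 scale (edgeR adjusted p = 0.141), and gene 21 stood 0.44 ± 0.15 higher (edgeR adjusted p = 0.0674). DESeq2 called gene 21 (0.42, adjusted p = 0.0437), as did edgeR without affected day 9 replicate 1 (adjusted p = 0.0495). The estimates of the remaining 5 ran from -0.40 to 0.46. The median over the 8 members without gene 20 was 0.45, beside 0.02 over all tested genes. That shift was not particular to the window. The median was also 0.45 over the 5 tested genes within 1 Mb below it and over the 10 within 1 Mb above it.

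At day 14 genes 18, 19 and 21, all on the upper side of gene 17, rose in affected dogs. Gene 20 was also called higher, and gene 3 was called lower. That is 4 of 9 higher, where 11.3% of all tested genes were called higher, and 1 of 9 lower, where 10.7% were called lower, so the lower share was near that of all genes. A genotype difference is built into gene 20 by the filter, and without it 3 of 8 were called higher and 1 lower. The median log2 fold change of the 8 was -0.21, beside 0.03 over all tested genes.

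Gene 18 held 3.55, 3.17, 3.40, 4.22 and 2.51 CPM in the day 14 controls and 7.90, 14.8, 9.38, 11.02 and 7.42 CPM in the affected dogs, again without overlap. Its log2 fold change was 1.58 ± 0.29 (edgeR adjusted p = 3.93e-04). Gene 19 rose from 79.6, 70.5, 72.2, 77.2 and 75.4 CPM to 97.7, 109.6, 93.0, 96.8 and 93.7 CPM, or by 0.39 ± 0.08 on the log2 scale (edgeR adjusted p = 0.00176). Every affected library was above every control library for both genes. Gene 21 held 7.62, 10.2, 11.1, 9.19 and 10.4 CPM in control dogs and 16.6, 13.5, 9.04, 16.4 and 14.3 CPM in affected dogs. Here 1 affected library lay within the range of the controls, and the log2 fold change was 0.53 ± 0.15 (edgeR adjusted p = 0.0125).

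Gene 20 and gene 3 rest on less. Gene 20 (36793347 to 36793451, plus strand) is a single exon that lies within the span of gene 19 on the same strand and shares no exon base with it. It had 46 counts in the day 14 controls and 89 in the affected dogs in all, which is 1.05 ± 0.33 on the log2 scale. It met the filter's level in 5 libraries of each affected group and 2 of each control group, so its p is not given, and reads from unspliced RNA of gene 19 were not told apart from its own. Its call ended without control day 14 replicate 1, without replicate 4 or 5 of that group, without affected day 14 replicate 3, and with no filter on low counts. Gene 3 (35864121 to 35884337, plus strand, 6 exons, ENSCAFG00000013504), next to gene 2, held 5.04, 3.27, 2.61, 5.25 and 5.02 CPM in control dogs and 1.33, 2.71, 1.84, 2.28 and 2.52 CPM in affected dogs. The groups overlapped by 1 library, and the log2 fold change was -0.99 ± 0.30 (edgeR adjusted p = 0.0224). Its call ended when any 1 of control day 14 replicates 1, 4 and 5 or affected day 14 replicate 1 was left out, with an edgeR adjusted p of at most 0.0679.

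The estimates for day 14 differed in sign on the 2 sides of gene 17. The 6 tested genes below it, including gene 2, had log2 fold changes from -1.41 to -0.09, of which gene 3 was called by edgeR. The smallest, of gene 11 (-0.09 ± 0.59), was 0.30 without control day 14 replicate 2 and was also above 0 without affected day 14 replicate 5. Gene 17 and the 4 genes above it had 0.39 to 1.58. At day 9 the same 5 genes had 0.35 to 2.48, while the 6 below ran from -0.65 to 0.94 with both signs. This division was drawn after the values were seen and includes the chosen pair, so it has no test. All 6 genes below gene 17 also lie in the run, from gene 2 to gene 18, known for high day 14 controls. That choice favours lower values in affected dogs at day 14, though genes 17 and 18 of the same run stood higher. The signs, and the sum below gene 17 at day 14, therefore do not show a division by position. Summed over the 8 members below gene 17 other than gene 2, the level was 3.19 ± 0.519 CPM in control dogs and 3.53 ± 0.450 CPM in affected dogs at day 9, and 11.6 ± 1.45 and 7.74 ± 1.99 CPM at day 14 (SD, n = 5 each). Summed over the 4 members above it, of which gene 19 gave most, it was 65.0 ± 3.76, 105.2 ± 5.43, 88.5 ± 2.71 and 123.1 ± 10.01 CPM in the same order.

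**Figure D4:**
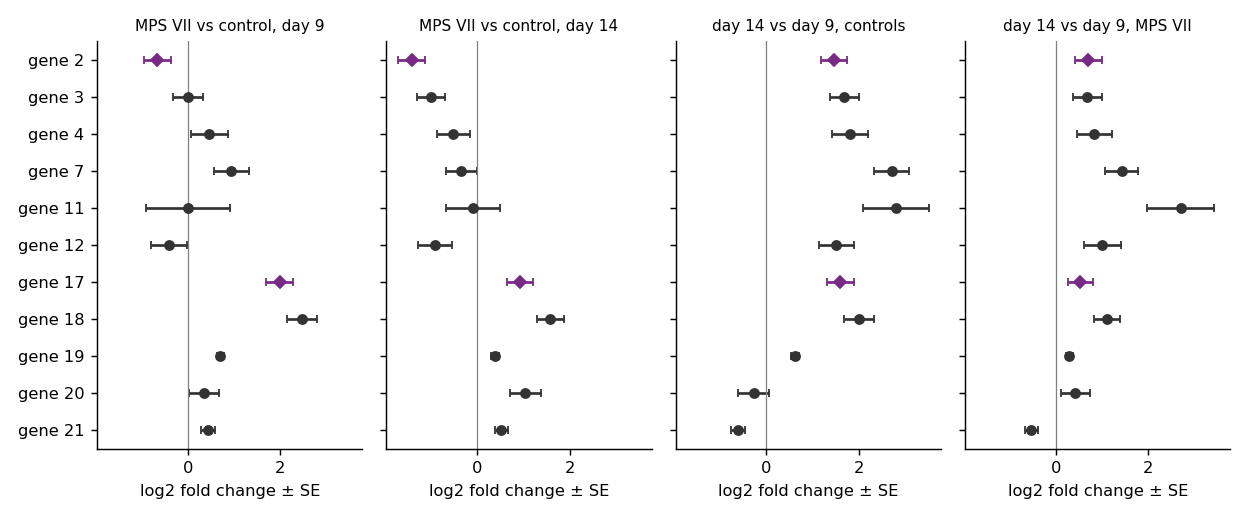
Log2 fold changes of the 11 tested genes (rows, in chromosomal order) in 4 comparisons (panels), with bars for the standard error. Diamonds mark the chosen genes 2 and 17; at day 14 the genes from gene 2 to gene 12 lie between -1.41 and -0.09 and those from gene 17 to gene 21 between 0.39 and 1.58.

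The change from day 9 to day 14 in affected dogs compared means of libraries that played no part in the age change of controls. The filter and the spread behind its p-values came from all 20 libraries, controls included. Those p-values are therefore not fully separate from the control libraries. Genes 4, 11 and 12 passed the filter through day 14 libraries (9, 8 and 9 libraries of day 14 met it, beside 2, 0 and 4 of day 9), so an age difference is built into these 3. Of the other 6, genes 7, 18 and 19 were called higher at day 14, where 12.7% of all tested genes were called higher, and gene 21 was called lower, where 9.92% were called lower. The median log2 fold change of these 6 was 0.55, beside -0.09 over all tested genes. When affected libraries alone were fitted, edgeR called genes 7 and 18 only, and genes 19 and 21 had adjusted p-values of 0.0965 and 0.0703.

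Gene 7 stood at 1.18, 1.09, 0.553, 1.32 and 0.827 CPM in affected dogs of day 9 and at 2.43, 3.90, 3.91, 1.43 and 1.65 CPM at day 14. All day 14 libraries were above all day 9 libraries, and the log2 fold change was 1.42 ± 0.36 (SE, edgeR adjusted p = 0.00663). In controls its change was 2.70 ± 0.38, from 0.697, 0.598, 0.352, 0.638 and 0.269 CPM to 2.02, 4.95, 4.25, 2.16 and 3.50 CPM. Gene 11 (36197203 to 36205042, plus strand, 5 exons) was almost silent at day 9, with 10 counts over the 5 affected dogs and 10 over the 5 controls. At day 14 it held 60 counts in affected dogs and 69 in controls. Its log2 difference with age was 2.70 ± 0.72 in affected dogs and 2.80 ± 0.72 in controls, given without a p since only its day 14 libraries took it past the filter.

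Genes 18 and 19 rose with age in affected dogs by 1.11 ± 0.28 and 0.30 ± 0.08 on the log2 scale (edgeR adjusted p = 0.00779 and 0.0142). The ages overlapped for gene 18 and not for gene 19. Gene 18 stood at 8.53 CPM in affected day 9 replicate 3, above affected day 14 replicates 1 (7.90 CPM) and 5 (7.42 CPM). Without affected day 9 replicate 3 the age change of gene 18 in affected dogs was 1.48. In controls genes 18 and 19 differed by 2.01 ± 0.32 and 0.62 ± 0.08. Gene 21 went the other way. It fell by 0.53 ± 0.15 on the log2 scale in affected dogs (edgeR adjusted p = 0.0135), from 17.2, 20.4, 24.7, 18.9 and 19.3 CPM at day 9, and had a log2 difference of -0.62 ± 0.15 in controls, from 13.0, 16.3, 14.2, 15.5 and 15.4 CPM at day 9. In both genotypes its day 14 libraries lay below all day 9 libraries.

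**Figure D5:**
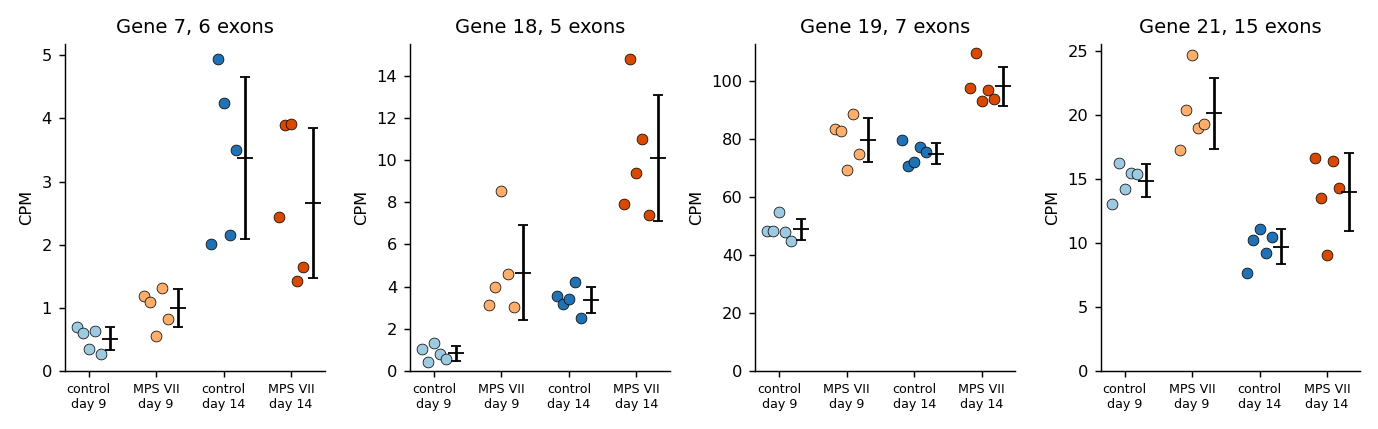
CPM of genes 7, 18, 19 and 21 in each library of the 4 groups; points are libraries and bars give the mean ± SD of 5 dogs. Genes 18 and 19 have their lowest means in the day 9 controls and their highest in the affected dogs of day 14 (7.42 to 14.8 and 93.0 to 109.6 CPM), gene 7 is low at day 9 in both genotypes, and gene 21 is lower at day 14 than at day 9.

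The remaining tested members, genes 4 and 12, were not called by edgeR in any of the 3 tested comparisons. Gene 4 (35919910 to 35934027, minus strand, 6 exons) held 31 and 43 counts in controls and affected dogs of day 9 and 103 and 67 at day 14. Gene 12 (36298111 to 36316184, minus strand, 6 exons) held 70, 52, 182 and 91 counts in the same order. Its log2 fold change between genotypes at day 14 was -0.90 ± 0.37 (edgeR adjusted p = 0.0872), and DESeq2 called it with -0.92 (adjusted p = 0.0498). Its age difference in affected dogs was 1.01 ± 0.39, and 1.30 without affected day 9 replicate 3, the library that stood apart. EdgeR called that difference without this library or without affected day 14 replicate 5, and so did DESeq2 with all libraries. Gene 12 passed the filter through day 14 libraries, so an age difference is built into it. For that reason no p is given, and these calls are no evidence of a change with age. In controls the age differences of genes 3, 4 and 12 were 1.68 ± 0.31, 1.81 ± 0.38 and 1.51 ± 0.38 on the log2 scale, beside 0.68 ± 0.31 and 0.83 ± 0.38 for genes 3 and 4 in affected dogs. The members below the filter were scarce in every group: gene 9 held 6, 10, 42 and 34 counts over 5 libraries each in the order control day 9, MPS VII day 9, control day 14 and MPS VII day 14, gene 13 held 2, 14, 20 and 20, and gene 1 held 37, 10, 17 and 18.

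How far the age change differed between genotypes rests in part on the controls' age change and is given without a test. It was negative for 9 of the 11 tested genes, from -1.28 ± 0.51 for gene 7 to -0.10 ± 1.09 for gene 11, which means a smaller age difference in affected dogs than in controls. It was 0.70 ± 0.46 for gene 20 and 0.09 ± 0.21 for gene 21. For the pair it was -1.06 ± 0.40 for gene 17 and -0.76 ± 0.41 for gene 2. The run from gene 2 to gene 18 was known beforehand for its rise with age in controls. That choice favours a negative difference for the genes of the run. The share of negative differences over all tested genes was not set beside these values. The count of negative genes is therefore no evidence that the age change differed between genotypes in the window.

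Genes 17 and 18 varied together across libraries, and the pair itself did not. Over the 20 libraries the Pearson correlation of log2 CPM was 0.94 between genes 17 and 18, and 0.68 after the mean of each group was removed. Genes 17 and 19 had 0.90, and 0.23 with group means removed. Genes 2 and 17 had -0.04 and -0.11, and genes 2 and 3 had 0.78 and 0.30. These are descriptions of libraries that share groups and depth. The 5 genes outside the window most like gene 17 lay on chromosome 7 from 5932705, on chromosome 16 from 39436753 and from 44525644, on chromosome 1 from 37706423 and on chromosome 26 from 38892721. Their correlations with gene 17 were 0.92 to 0.95, and 0.46 to 0.70 with group means removed. The 5 most like gene 2 lay on chromosome 10 from 62145117, on chromosome 6 from 65596760, on chromosome 3 from 40130898, on chromosome 14 from 39567473 and on chromosome 17 from 4548465. Their correlations with gene 2 were 0.87 to 0.90, and 0.35 to 0.55 with group means removed. With ranks in place of values, 2 of the 5 genes most like gene 17 and 1 of the 5 most like gene 2 stayed among the first 5.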

How the data were processed

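Per the labels' protocols, a stranded kit for polyadenylated RNA was read in pairs of 100 bases, and the annotation was Ensembl build 77 on CanFam3.1. Tools listed in the submitters' processing notes, with no role, are STAR 2.4.0j, HTSeq, edgeR, bcl2fastq and CASAVA 1.8.2. How strand and shared reads were handled when counting is not given in the sources used here, which leaves near-identical receptor genes and overlapping genes uncertain. Raw counts per gene are what the authors deposited, and 0 columns of counts lay outside the 20 samples. Of counts above 0 and under 200, 65.2% to 76.4% per library were even, so fits were repeated with counts halved. Each library was taken as a separate dog. No 2 libraries of a group were alike within sampling noise (chi-square per gene at least 16.7 over 40 pairs).

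Genes were kept by filterByExpr (14550 of 24580; the 10030 dropped hold 0.0413% of counts), scaled by TMM and fitted with 1 mean per group over 20 libraries in edgeR 4.0.16 (R 4.3.3; robust quasi-likelihood test). The Benjamini-Hochberg adjustment ran over the 14550 genes, with a threshold of 0.05. Standard errors are the log2 fold change over the root of F. Log2 CPM for components and correlations used a prior count of 2. DESeq2 1.42.0, median-ratio scaling, other filters and libraries left out in turn were alternatives. The members, the pair, the lists and the rule that names every member by its start were chosen with earlier results of these data known. Marker and pathway lists by symbol were not applied, as no identifier has a symbol here.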

Additional observations from a re-analysis of the deposited data

Results flagged for a closer look

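Dixon's gap test was applied to the CPM of the 14 members in each group of 5 dogs. It marked 6 of 56 groups, where chance marks about 1 in 20 if values are normally distributed. Genes with few or no counts in a library, such as gene 13, do not meet that condition. No excess is therefore read from the number of groups marked. Gene 18 stood at 8.53 CPM in affected day 9 replicate 3, against 3.03 to 4.61 CPM in the rest of that group, and this is the library that stood apart on the third principal component. Gene 19 stood at 109.6 CPM in affected day 14 replicate 2, against 93.0 to 97.7 CPM in the rest. Gene 12 stood at 0.242 CPM in affected day 14 replicate 5, on 5 counts, against 0.953 to 1.23 CPM. Gene 20 stood at 0.769 CPM in control day 14 replicate 2, on 16 counts, against 0.281 to 0.397 CPM. Gene 13 stood at 0.470 CPM in affected day 9 replicate 4, on 10 counts, against at most 0.0835 CPM. In control day 9 replicate 1 gene 13 stood at 0.0697 CPM, on 2 counts, while the rest of the group held none. The causes of these gaps were not tested.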

How the results depend on the processing

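The numbers of the 9 tested members called higher and lower stayed within 1.5 times of those of the main fit under most alternatives. All counts of members here include gene 20 for genotype and genes 4, 11 and 12 for age, in which the filter built in a difference. In the main fit 4 of the 9 were called higher with age in affected dogs, gene 11 among them, against 3 of 6 without these genes. DESeq2 called 2 lower at day 14 in place of 1, adding gene 12, 3 higher at day 9 in place of 2, adding gene 21, and 5 higher with age in affected dogs in place of 4, adding gene 12. With only the libraries of the groups compared, the age change in affected dogs had 2 called higher and 0 lower. Over all genes, that setting called 1466 in place of 3297 for this age change, and 711 in place of 1220 for genotype at day 9. For genotype at day 14 it called more genes than the 3202 of the main fit. Fewer libraries entered each of these fits, and the cause of the differences was not tested. Leaving out 1 library at a time, 2 to 3 were called higher and 0 lower at day 9, 3 to 4 higher and 0 to 1 lower at day 14, and 4 to 6 higher and 1 lower with age in affected dogs. The genotype difference at day 9 was near 0 for genes 3 and 11 and changed sign: to -3.01e-04 and -0.00425 under median-ratio scaling, to -9.18e-04 and -0.00569 without the filter, to -0.00151 and -0.00132 with DESeq2, and to -0.0270 for gene 3 with counts halved. With libraries left out it ran from -0.20 to 0.18 for gene 3 and from -0.94 to 0.41 for gene 11. Gene 11 also ran from -0.27 to 0.30 for genotype at day 14 and from -0.50 to 0.85 for the difference of the age change. A count minimum of 20 or 100 in place of 50 could change no call, as it bears on untested genes only. Labels give no shared replicate numbers or litters, so no paired fit was made. Counts of 0 to 30 per library limit genes 1, 4, 9, 11, 13 and 20.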

Other observations

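The flanks of the window were read as fixed lists. Of 5 tested genes within 1 Mb below it, 0 were called between genotypes at either age (edgeR adjusted p under 0.05). Of 10 tested genes within 1 Mb above it, 1 was called higher in affected dogs at day 9 and 3 at day 14, and 0 lower at either age. On the whole of chromosome 27, 21 of 365 tested genes were called higher and 4 lower at day 9, and 39 higher and 46 lower at day 14. Over all tested genes, 6.18% were called higher and 2.21% lower at day 9, and 11.3% higher and 10.7% lower at day 14. The flank counts were not tested against these shares. The first gene below the window, from 35784477, held 15803 counts, more than all 9 members below gene 17 together.

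Gene 6, with 28 counts in all and therefore no member, held 21 of them in the control dogs of day 14, 0 in the control dogs of day 9, and 6 and 1 in the affected dogs of day 9 and day 14. Gene 14 and gene 15, which share the many-exon structure of gene 17, held 0 and 10 counts over the 20 libraries, beside 16173 for gene 17.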
